A study of Mus musculus with 4 samples.

Results

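The hypoxia and glycolysis genes described here are 32 mouse genes, listed by name among the 32287 features counted in single cells of the penis at embryonic day (E) 16.5. They were taken by symbol, from a list that was chosen with earlier results of these data known. They cover the transporters and enzymes that turn glucose into lactate, and genes whose transcription is known to rise when oxygen is low. *Aldoa* was the only symbol carried by 2 gene IDs, and the ID with nearly all of its counts was used. mRNA was measured, and neither oxygen nor lactate nor enzyme activity was.

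Cells use glycolysis to make ATP from glucose without oxygen, and lactate is exported when the end product pyruvate is not oxidised in mitochondria. When oxygen falls, prolyl hydroxylases of the EGLN family stop marking the alpha subunits of hypoxia-inducible factor (HIF) for destruction, and HIF then switches on most of the genes of this list, the enzymes included. Cartilage-like mesenchyme has few vessels, and in growing cartilage HIF and glycolysis are known to be active.

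Dissociated penises of 4 samples were compared, 2 per genotype. DTA- samples carried the conditional diphtheria toxin allele *DTA f/+* without *Nr5a1cre*, and DTA+ samples carried *Nr5a1cre* together with *DTA f/+*, so the toxin allele was present in both genotypes. *Nr5a1-Cre* is also active in the gonads and adrenals, so effects of losing penile cells and of losing hormones cannot be told apart. The labels do not say whether the samples of a genotype came from separate litters, and the p-values measure the spread between these samples. *tdTomato*, the reporter added to the genome, had 2485 and 2343 UMIs in the DTA+ samples and 0 in both DTA- samples. So the genotypes also differed in the reporter, whose allele the study's methods list for the ablated embryos. The study describes low background *tdTomato* transcript in most cells, so these UMIs alone do not mark *Nr5a1*-lineage cells. *Nr5a1* itself had 0 to 2 UMIs per sample.

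UMIs (unique molecular identifiers) mark single captured mRNA molecules. Totals were 50779551 to 73577028 UMIs in 11343 to 12580 cells per sample, with the first DTA- sample the deepest. After the cell filters 31132 of 47040 cells remained, 6573 to 8810 per sample, with a median of 3551 to 4700 UMIs. Any pair of samples shared 31 to 48 cell barcodes. Cells were clustered jointly, and clusters were named "-like" from marker genes or, where the markers did not decide, by their leading genes. UMIs were summed per sample and population. They are given as CPM, that is scaled to the TMM-normalised library size of the genes tested in that population. Log2 fold changes are DTA+ minus DTA-. A gene was called when the edgeR quasi-likelihood test gave a Benjamini-Hochberg adjusted p under 0.05.

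The lowering of these genes in DTA+ penises was called in 4 of the 18 populations tested, the corpus cavernosum-like and distal glans-like cells and the mesenchymal clusters led by *Coch*/*Meox2* and *Thbd*/*Ptgis*. 32 calls of a member in a population were lower and 2 were higher in DTA+. Of all genes tested in those 4 populations, 3.66% to 12.5% were called and 1.96% to 6.67% were called lower. The lactate exporter *Slc16a3* and the enzymes *Gapdh*, *Pgam1*, *Pkm* and *Ldha* were called lower in each of those 4 populations, while 18 members were called in none. Across all 441 tests of a member in a population, 322 fold changes were below 0. Of all genes tested, 48.4% to 51.8% were below 0 in each of the 18 populations.

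**Figure D1:**
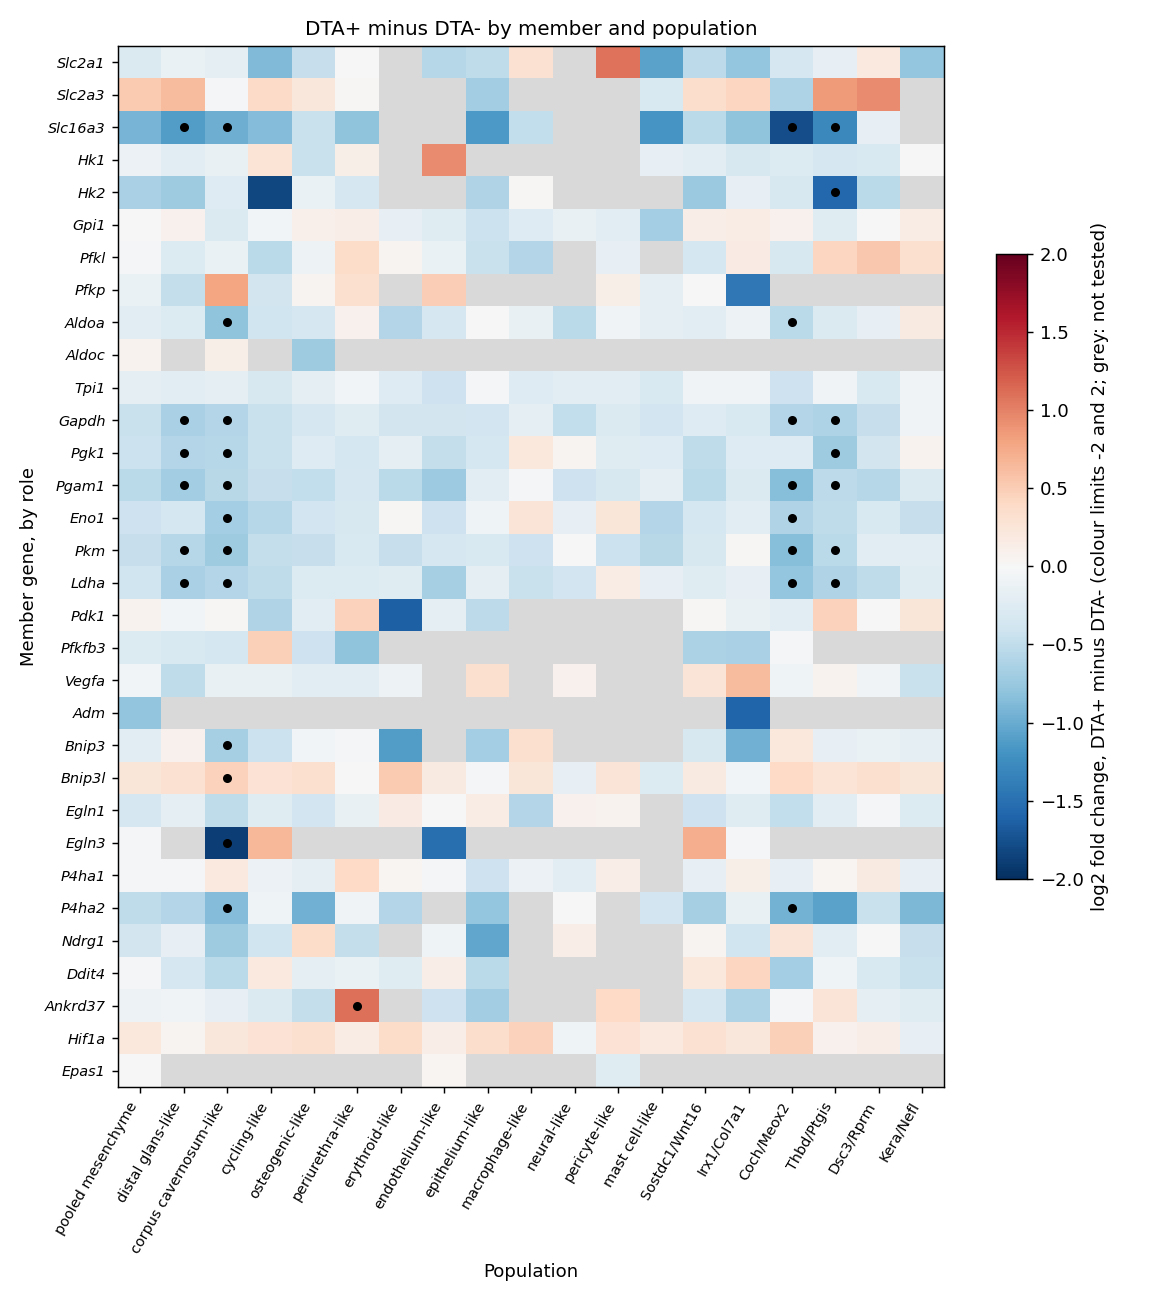
Log2 fold change (DTA+ minus DTA-) of the 32 members (rows, by role) in the pooled mesenchyme and 18 populations (columns). A dot marks an adjusted p under 0.05 and grey marks a gene that was not tested; the 34 dots of single populations lie in 5 columns, 12 of them in the corpus cavernosum-like cells.

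In control penises the members were not highest in one place. Comparing each gene only with itself across the 18 populations, its mean DTA- level was highest in the mast cell-like cells for 9 members, in the endothelium-like cells for 8 and in the corpus cavernosum-like cells for 6. Counts in the mast cell-like cells came from 39 to 65 cells per sample. CPM was scaled to the counts of 2553 tested genes there and of 11039 in the corpus cavernosum-like cells. This raises levels where fewer genes were tested, so close rankings between populations are not firm. Mean DTA- *Gapdh* was 1247 CPM in the mast cell-like and 1245 CPM in the epithelium-like cells. *Epas1*, which encodes the second HIF alpha subunit and is known from vessels, was at 203 and 291 CPM in the DTA- endothelium-like cells and at 215 and 177 CPM in the pericyte-like cells. In the pooled mesenchyme, all mesenchymal clusters summed, the same gene was at 0.519 and 1.26 CPM. Its levels in endothelium and pericytes overlapped, and both lay far above the mesenchyme. *Hif1a*, the widely expressed alpha subunit, varied less, with means from 58.5 CPM in the erythroid-like to 145 CPM in the endothelium-like cells.

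*Slc2a1*, the glucose transporter of barrier tissues and red cells, was at 131 and 283 CPM in the DTA- endothelium-like and at 182 and 215 CPM in the epithelium-like cells, levels that overlapped. In the corpus cavernosum-like cells it was at 76.2 and 73.7 CPM, and in the pooled mesenchyme at 24.7 and 26 CPM. In the other mesenchymal populations its mean DTA- level was 38.9 CPM or less, so the corpus cavernosum-like cells stood between the mesenchyme and the epithelium. *Eno1* (enolase) had its highest mean there, 252 ± 16.0 CPM (SD, n = 2), against 213 ± 40.8 (SD, n = 2) in the epithelium, which overlapped in range. For *Tpi1* (triosephosphate isomerase) the means were 686 ± 7.64 and 545 ± 77.9 CPM (SD, n = 2 each) and did not overlap. The mitophagy receptor *Bnip3* was at 113 and 193 CPM in the corpus cavernosum-like cells, above the 100 and 94.1 CPM of the osteogenic-like cells that came next. *Vegfa*, the growth factor that attracts vessels, was highest in the distal glans-like cells at 140 and 200 CPM, which overlapped with the 118 and 185 CPM of the *Dsc3*/*Rprm* cluster. *Adm* (adrenomedullin), the other secreted member, was listed at 1.22 and 1.30 CPM in the pooled mesenchyme, too low for a comparison in most populations.

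**Figure D2:**
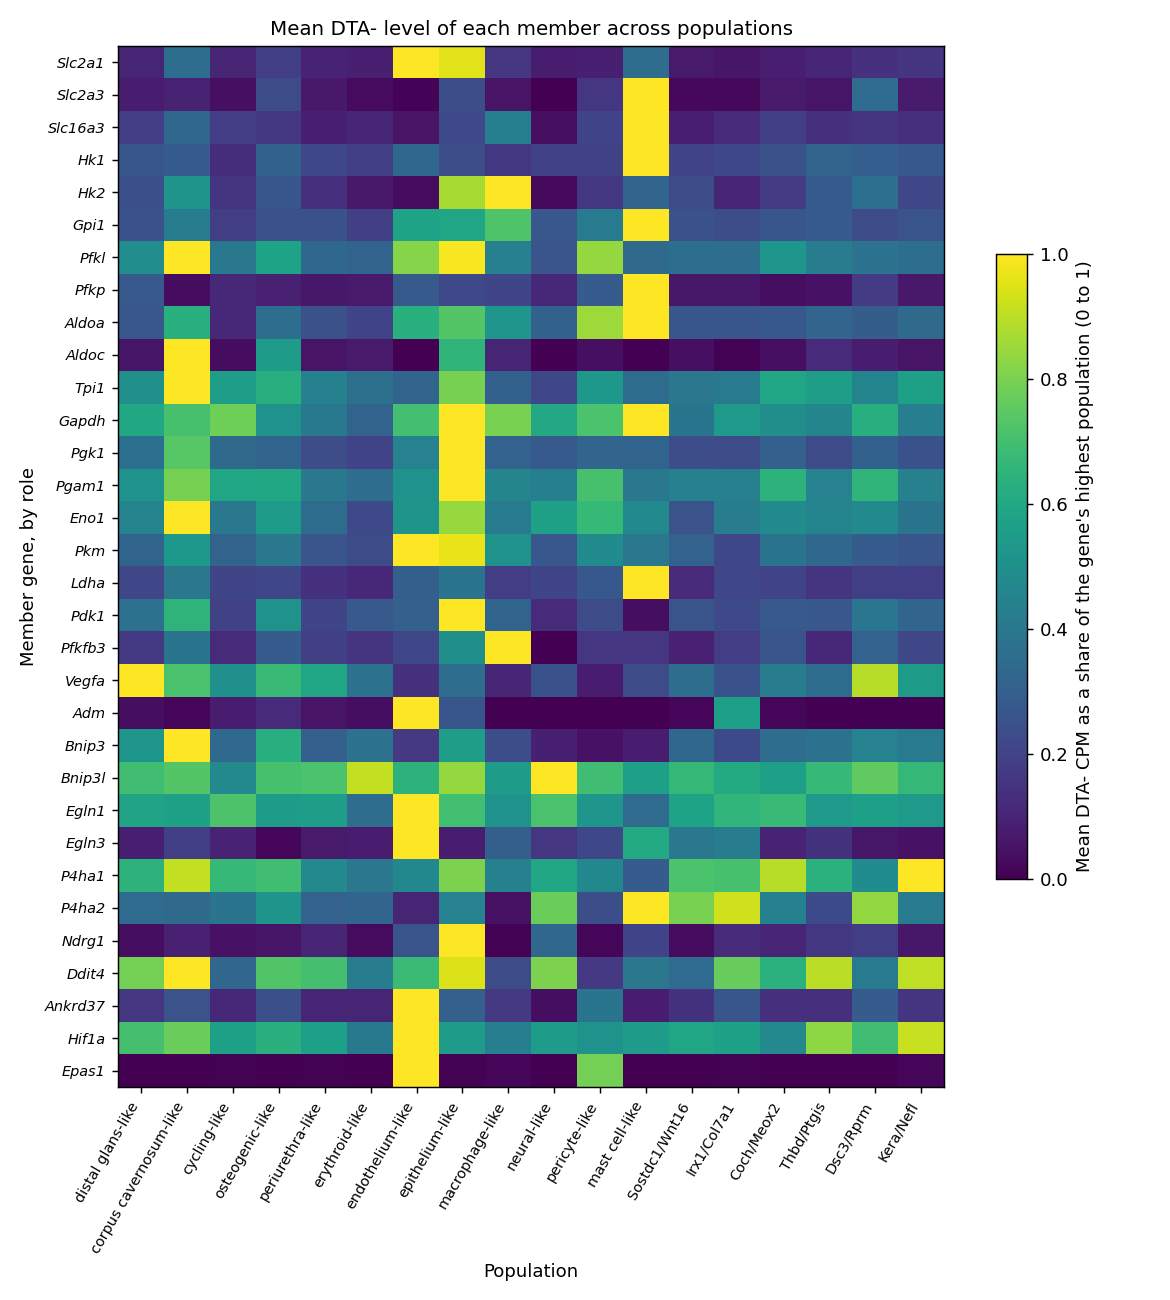
Mean DTA- level of each member (rows) in 18 populations (columns), as a share of the gene's own highest population. Many enzymes are near their highest level in the epithelium-like and corpus cavernosum-like columns, while *Epas1* is high only in endothelium-like and pericyte-like cells.

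Over all cells 0 of the 32 members were called by edgeR's quasi-likelihood test, where 0.488% of all genes tested were. At an unadjusted p under 0.05 there were 10, against 15.1% of all genes, and the likelihood ratio test and DESeq2 each called 3. The pooled mesenchyme, 28306 cells, gave the same picture: 0 members were called, against 1.17% of all genes, and the likelihood ratio test called 5 and DESeq2 4. At an unadjusted p under 0.05 there were 12 of 32 members, against 17.3% of all genes. 26 members were below 0 (all genes 50%) and 20 did not overlap between genotypes (all genes 50.4%). Their median log2 fold change was -0.20, and that of all genes tested 0.00.

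The lowest adjusted p in the pooled mesenchyme was that of *Slc16a3*, with 19.8 and 24.6 CPM in DTA- and 11.1 and 12.3 CPM in DTA+ samples. Its log2 fold change was -0.93 ± 0.16 (SE) with an edgeR adjusted p of 0.0565, and the genotypes did not overlap. *Pgam1* (phosphoglycerate mutase) followed with 265 and 247 against 169 and 183 CPM (-0.54 ± 0.11 on the log2 scale, edgeR adjusted p = 0.0751). For *Hk2*, a hexokinase that starts glycolysis, the values were 14.8 and 21.9 against 11.2 and 12.1 CPM, and its adjusted p in edgeR was 0.193. *Slc2a3*, a glucose transporter with high affinity, went the other way, at 8.87 and 9.15 against 10.8 and 15.1 CPM, with an edgeR adjusted p of 0.243. Neither *Hif1a* (log2 fold change 0.21) nor *Vegfa* (-0.05) was called.

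The corpus cavernosum-like cells held 12 of the 34 calls, more than any other population. These cells, marked by the chondrogenic genes *Sox9*, *Sox5*, *Col2a1*, *Col9a1* and *Col9a3*, numbered 484 and 588 in DTA- and 815 and 749 in DTA+ samples. Of the 30 members that passed the filter on low counts, 11 were called lower and 1 higher in DTA+; over all genes tested there, 9.46% were called, 5.08% lower and 4.38% higher. 24 members were below 0 (all genes 50.5%) and 18 did not overlap between genotypes (all genes 53.6%). The members' median log2 fold change was -0.32, and that of all genes -0.01. All 6 enzymes from *Gapdh* to *Ldha* were called lower, with a median of -0.59, but only *Aldoa* of the 8 enzymes before them.

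Of these 6 later enzymes, *Gapdh* (glyceraldehyde phosphate dehydrogenase) was at 899 and 867 CPM in DTA- and at 617 and 558 CPM in DTA+ corpus cavernosum-like cells, a log2 fold change of -0.59 ± 0.13 (SE; edgeR adjusted p = 0.00735). *Pgk1* (phosphoglycerate kinase), the first enzyme of the pathway that yields ATP, was at 339 and 432 against 268 and 253 CPM (-0.56 ± 0.15, edgeR adjusted p = 0.0194). *Pgam1* was at 380 and 406 against 255 and 281 CPM (-0.55 ± 0.14, edgeR adjusted p = 0.0159). These 3 act in a row in the pathway. *Eno1* was at 264 and 241 against 169 and 146 CPM (-0.68 ± 0.15, edgeR adjusted p = 0.00588); reads of its near-identical copy *Eno1b*, which itself had 26 to 48 UMIs per sample, may be shared with it. *Pkm* (pyruvate kinase of muscle type) was at 351 and 383 against 225 and 224 CPM (-0.71 ± 0.14, edgeR adjusted p = 0.00261). *Ldha*, the lactate dehydrogenase subunit that favours lactate, was at 575 and 715 against 458 and 398 CPM (-0.59 ± 0.14, edgeR adjusted p = 0.0135). In each of these 6 enzymes and in the exporter *Slc16a3* the genotypes did not overlap. *Slc16a3* was at 40.6 and 58.2 against 26.4 and 24.0 CPM (-0.97 ± 0.21, edgeR adjusted p = 0.00663).

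Among the first steps, *Aldoa* (aldolase A), which splits the sugar bisphosphate, was at 372 and 451 CPM in DTA- and at 244 and 229 CPM in DTA+ samples. With -0.80 ± 0.14 (SE) on the log2 scale and an edgeR adjusted p of 0.00139 it had the lowest p of all members in these cells. Its neighbour *Tpi1* was at 680 and 691 against 633 and 564 CPM (-0.20 ± 0.13, edgeR adjusted p = 0.385) and was not called. *Aldoc*, a second aldolase, was at 36.4 and 35.4 against 36.0 and 41.6 CPM, values that overlapped. *Hk1*, *Hk2*, *Gpi1*, *Pfkl* and *Pfkp* (hexokinases, glucose phosphate isomerase and phosphofructokinases) were not called, with log2 fold changes from -0.29 for *Gpi1* to 0.80 for *Pfkp*, the latter on 5 to 21 UMIs per sample. Nor was the glucose importer *Slc2a1* (-0.20). The regulators *Pdk1* (0.03), which limits the oxidation of pyruvate in mitochondria, and *Pfkfb3* (-0.36), which makes an activator of phosphofructokinase, were not called either.

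4 further members outside glycolysis were called in the corpus cavernosum-like cells. *Egln3*, a HIF prolyl hydroxylase that HIF itself induces, was at 4.14 and 8.96 CPM in DTA- and 1.03 and 2.47 CPM in DTA+ samples, from 10, 22, 3 and 7 UMIs. Its log2 fold change of -1.89 ± 0.56 (SE; edgeR adjusted p = 0.0385) rests on those few molecules. *P4ha2*, a catalytic subunit of the enzyme that hydroxylates collagen prolines, was at 20.3 and 32.6 against 16.4 and 12.4 CPM (-0.87 ± 0.27, edgeR adjusted p = 0.0479), while its relative *P4ha1* had a log2 fold change of 0.20. The mitophagy receptors were called in opposite directions. *Bnip3* was at 113 and 193 against 96.9 and 96.7 CPM (-0.66 ± 0.19, edgeR adjusted p = 0.0364), and its close relative *Bnip3l* at 178 and 203 against 254 and 268 CPM (0.46 ± 0.14, edgeR adjusted p = 0.0497). *Egln1*, the main oxygen-sensing hydroxylase, had -0.51 (edgeR adjusted p = 0.0804). *Ddit4*, an inhibitor of mTOR signalling, and *Ndrg1*, a stress-induced gene, had -0.54 and -0.72 and were not called, nor was *Hif1a* at 0.23.

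**Figure D3:**
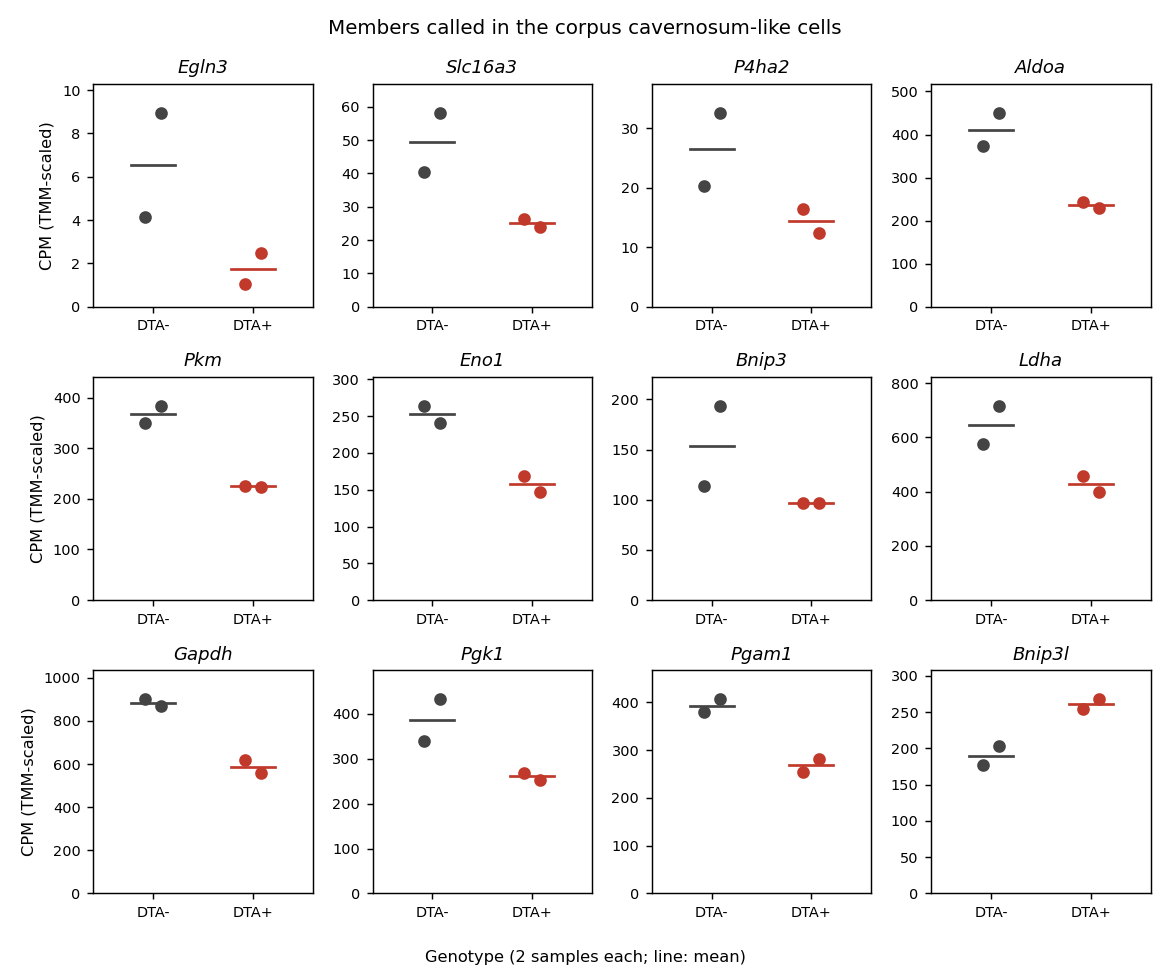
CPM (y axis, from 0) of the 12 members called in the corpus cavernosum-like cells, 1 panel per gene; points are the samples and lines the genotype means. In every panel the DTA+ samples lie on one side of the DTA- samples, above them only for *Bnip3l*.

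The count in these cells depended on the DTA+ libraries, while the members' median log2 fold change was -0.29 without DTA+ replicate 1 and -0.48 without DTA+ replicate 2. 3 members were called without DTA+ replicate 1 and 1 without DTA+ replicate 2, *Aldoa* in both, against 14 without DTA- replicate 1 and 11 without DTA- replicate 2; DESeq2 called 7, no filter on low counts left 5 and thinning every cell to 1000 UMIs left 6. Without the smaller cluster of cycling cells among them, 9 were called, all lower. *Aldoa* was called lower in 17 of 17 alternatives, *Bnip3* in 8 of 17, and the higher level of *Bnip3l* was called in 6 of 17. With DTA- replicate 2 left out, the log2 fold change of *Bnip3* was -0.22, that of *P4ha2* -0.49 and that of *Egln3* -1.22, none of them called.

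The promoters of the called genes are shown because HIF binds a short core sequence, ACGTG or GCGTG. In RefSeq windows from 250 bases before to 50 after the start (GRCm38), searched on both strands (so also CACGT and CACGC) with overlapping matches counted once, 26 of the 28 members with a window held a match (92.9%), against 46.7% of 27025 genes. Members' windows were also richer in G and C (median 65.0% against 52.7%), and the core contains CG, so the shares are a description. The 11 members called lower in the corpus cavernosum-like cells all held a match, as did 14 of the 16 other members tested there that have a window. Stretches of 100 bases before the start, with matches in capitals, are given for 4 of the called genes on the strand of the gene. They were placed to hold matches, from 229 to 130 bases before the start for *Egln3*, 175 to 76 for *Pgam1*, 107 to 8 for *P4ha2* and 100 to 1 for *Ldha*. *Pkm* and *Aldoa*, whose stretches are not shown, had 0 matches in the window of one annotated start and held theirs in windows of other starts. None of the stretches shown overlaps an annotated exon; those of *Ldha* and *P4ha2* lie within the annotated span of the gene, and those of *Pgam1* and *Egln3* before it. The positions are chr19:41911696-41911795 (plus strand) for *Pgam1*, chr7:46845704-46845803 (plus) for *Ldha*, chr11:54100817-54100916 (plus) for *P4ha2* and chr12:54204004-54204103 (minus) for *Egln3*.
Pgam1: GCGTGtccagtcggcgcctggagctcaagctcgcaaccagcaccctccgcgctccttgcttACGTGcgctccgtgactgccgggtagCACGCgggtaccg
Ldha: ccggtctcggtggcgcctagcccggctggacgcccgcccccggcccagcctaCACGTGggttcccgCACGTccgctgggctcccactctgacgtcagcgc
P4ha2: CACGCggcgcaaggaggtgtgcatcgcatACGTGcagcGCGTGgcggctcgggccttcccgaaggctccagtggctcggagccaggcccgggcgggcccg
Egln3: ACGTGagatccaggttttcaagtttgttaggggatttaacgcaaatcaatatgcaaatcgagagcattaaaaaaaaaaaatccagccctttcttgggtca
The *Pgam1* and *P4ha2* stretches each hold 3 matches, the *Ldha* stretch 2 and the *Egln3* stretch 1. A match is a run of letters and not a measured binding site.

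The distal glans-like cells, a cluster led by *Msx2* and *Inhba* added to another led by *Tac1* and *Tfap2c*, numbered 735 to 1664 per sample. The *Msx2*/*Inhba* cluster had 540 and 434 cells in DTA- and 583 and 936 in DTA+ samples. The *Tac1*/*Tfap2c* cluster had 431 and 301 against 325 and 728. Here 6 of the 28 members tested were called, all lower, while 3.66% of all genes were called and 1.96% were called lower. The members' median log2 fold change was -0.27, and 5 of the 6 later enzymes were among the calls. *Slc16a3* changed most, from 21.5 and 31.4 CPM in DTA- to 9.83 and 13.2 CPM in DTA+ samples (-1.12 ± 0.25 on the log2 scale, edgeR adjusted p = 0.0167). *Pgam1* was at 255 and 249 against 137 and 174 CPM (-0.69 ± 0.14, edgeR adjusted p = 0.0108). *Gapdh* was at 823 and 673 against 458 and 500 CPM (-0.64 ± 0.12, edgeR adjusted p = 0.00575). None of these overlapped between genotypes, and neither did 48.2% of all genes tested there. *Ldha*, *Pgk1* and *Pkm* were called lower by 0.57 to 0.64 on the log2 scale. *Vegfa*, highest in this population, was at 140 and 200 against 103 and 133 CPM and was not called (-0.51 ± 0.18, edgeR adjusted p = 0.127). Without DTA+ replicate 1 the calls fell to 2, and thinning left 3.

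The *Coch*/*Meox2* cluster (438 to 607 cells per sample) had 8 of 27 members called, all lower, against 7.5% of all genes called and 3.5% called lower. *Slc16a3* had its largest change of the 13 populations in which it was tested, from 18.5 and 35.5 CPM in DTA- to 8.78 and 6.46 CPM in DTA+ samples (-1.77 ± 0.35 on the log2 scale, edgeR adjusted p = 0.00429). *P4ha2* was at 39.1 and 28.1 against 15.1 and 20.7 CPM (-0.94 ± 0.26, edgeR adjusted p = 0.0352), and *Pkm* at 258 and 271 against 141 and 152 CPM (-0.85 ± 0.15, edgeR adjusted p = 0.00144). In all of these the DTA+ samples lay below the DTA- samples. Of all genes tested there, 52% did not overlap between genotypes, in either direction. *Pgam1*, *Ldha*, *Eno1*, *Gapdh* and *Aldoa* completed the calls with log2 fold changes from -0.84 to -0.54. In leave-one-out fits 3 to 10 members were called, the fewest without DTA+ replicate 1, and DESeq2 and thinning each gave 5.

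In the *Thbd*/*Ptgis* cluster (413 to 486 cells per sample), 7 of 26 members were called, all lower. This cluster also had the highest share of all genes called, 12.5%, with 6.67% called lower. *Hk2* was at 18.3 and 24.4 CPM in DTA- and at 1.69 and 11.5 CPM in DTA+ samples, from 43, 43, 2 and 17 UMIs (-1.57 ± 0.44 on the log2 scale, edgeR adjusted p = 0.0202). Without DTA+ replicate 1 the log2 fold change of *Hk2* was -0.87 and not called, and without DTA+ replicate 2 it was -3.60. No hexokinase was called in any other population. *Slc16a3* was at 13.2 and 28.4 against 5.90 and 10.2 CPM (-1.29 ± 0.41, edgeR adjusted p = 0.0417), and *Pgk1* at 123 and 118 against 70.0 and 77.2 CPM (-0.71 ± 0.18, edgeR adjusted p = 0.0110). *Gapdh*, *Ldha*, *Pkm* and *Pgam1* had log2 fold changes from -0.62 to -0.52. None of these 7 calls was left without DTA+ replicate 1 and 1 was left without DTA+ replicate 2, and DESeq2 called 1.

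In the periurethra-like mesenchyme, with *Sall3* and *Hhip* among the leading genes of its clusters, 1 of 28 members was called, higher in DTA+. Over all genes 3.73% were called there and 1.74% were called higher, so the share of members was near that of all genes. 16 members were below 0 with a median of -0.06, among them all 6 later enzymes with a median of -0.31. The gene was *Ankrd37*, an ankyrin repeat gene known as a HIF target, at 11.7 and 11.9 CPM in DTA- and at 22.9 and 27.4 CPM in DTA+ samples, from 33, 26, 46 and 91 UMIs (1.10 ± 0.24 on the log2 scale, edgeR adjusted p = 0.0328). In the corpus cavernosum-like cells its log2 fold change was -0.17 and in the pooled mesenchyme -0.10, with overlapping samples in both. *Slc16a3* in the periurethra-like cells had -0.80 and *Pgk1* -0.36, and neither was called.

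In the other 13 populations 0 members were called by edgeR's quasi-likelihood test, where between 0% and 2.44% of all genes were. The shares of all genes called were 2.44% in the *Sostdc1*/*Wnt16*, 0.61% in the *Irx1*/*Col7a1*, 0.184% in the *Dsc3*/*Rprm* and 0.714% in the *Kera*/*Nefl* cluster. Among named populations they were 1.39% in the osteogenic-like, 0.295% in the cycling-like, 0.296% in the erythroid-like, 0.0175% in the endothelium-like, 0.105% in the neural-like and 0.161% in the pericyte-like cells. In epithelium-like, macrophage-like and mast cell-like cells 0% were called, with 39 to 153 cells per sample, so that nothing can be said of changes there at this depth. At an unadjusted p under 0.05 there were 12 of 29 members in the cycling-like cells, against 9.13% of all genes, and 0 to 9 members in the other 12 populations, against 4.15% to 14.6% of all genes. In the 9 named populations among them DESeq2 called 0 members, and the likelihood ratio test called 1 each in the cycling-like and osteogenic-like cells. In those cycling-like cells *Ldha* was at 342 and 342 against 255 and 224 CPM and *Hk2* at 9.99 and 12.5 against 1.76 and 4.54 CPM, without overlap, with edgeR adjusted p-values of 0.238 and 0.158. Of all genes tested in the cycling-like cells, 40.7% did not overlap. 4 populations had under 20 cells in a sample and were not tested, among them the subdermal prepuce-like cells with 266, 905, 28 and 10 cells.

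Direction was shared more widely than calls. *Tpi1*, *Gapdh* and *Pgam1* were below 0 in 18 of 18 populations, *P4ha2* in 15 of 15 and *Slc16a3* in 13 of 13 in which they were tested. The smallest of these falls were near 0, at -0.035, -0.076, -0.022, -0.0015 and -0.16 in that order. How many of all genes were below 0 in every population was not counted. *Hif1a* and *Bnip3l* went the other way, being below 0 in 2 and in 4 of 18. The populations come from the same 4 samples and are not independent. Summed over the 14 glycolytic enzymes, the level was 4092 and 4263 CPM in DTA- and 3325 and 3003 CPM in DTA+ corpus cavernosum-like cells, and 2486 and 2360 against 2017 and 1952 CPM in the pooled mesenchyme. In the periurethra-like cells it was 1980 and 1820 against 1807 and 1690 CPM. Both DTA+ samples lay below both DTA- samples in 15 of the 18 populations, with log2 ratios of the means between -0.54 and -0.08 over all 18; the 3 exceptions were the macrophage-like and pericyte-like cells and the *Irx1*/*Col7a1* cluster.

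**Figure D4:**
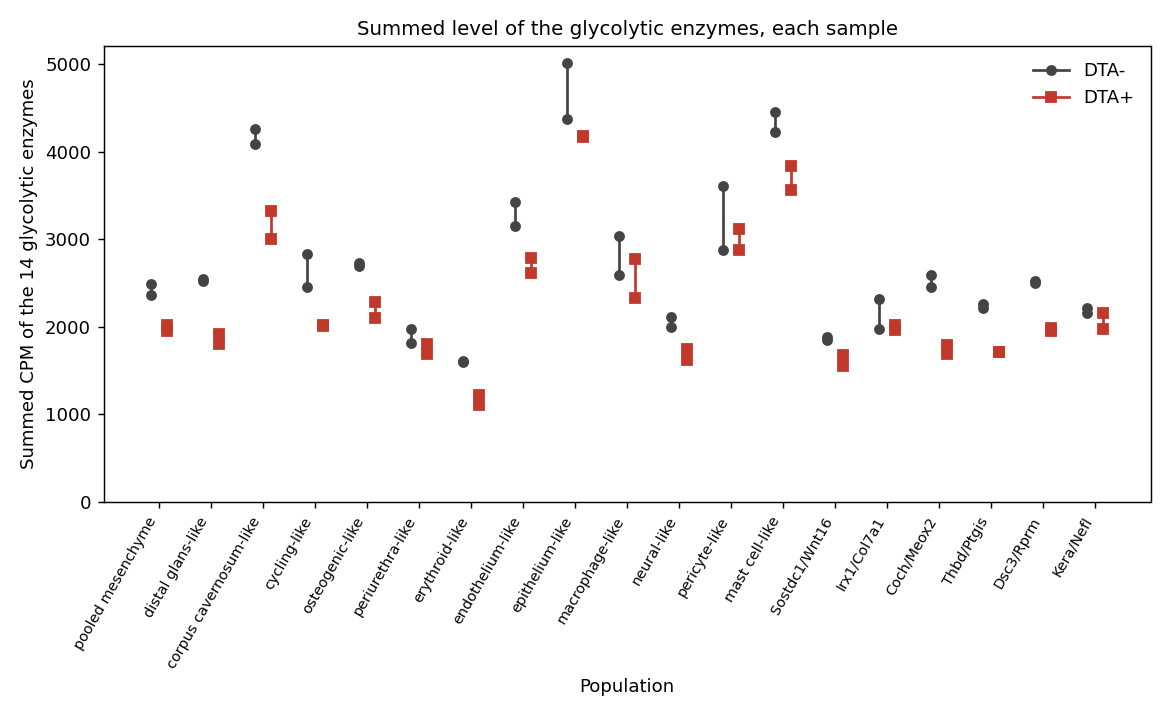
Summed CPM of the 14 glycolytic enzymes (y axis, from 0) in each sample for the 18 populations (x axis), points coloured by genotype. The corpus cavernosum-like samples range from 3003 to 4263 CPM, and DTA+ points lie below DTA- points in all but 3 populations.

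Whether the genotype difference in the corpus cavernosum-like cells differed from that in the rest of the mesenchyme was tested as an interaction within the same samples. It was called for 2 of 32 members, where 3.3% of all 14601 genes were; at an unadjusted p under 0.05 there were 11 members, against 13.6% of all genes. *Aldoa*, lower in the DTA+ corpus cavernosum-like cells, was at 169 and 167 CPM in DTA- and at 156 and 153 CPM in DTA+ samples in the rest of the mesenchyme. Its difference of differences was -0.67 ± 0.11 (SE; edgeR adjusted p = 0.000233). *Egln3* was at 5.04 and 9.56 against 7.64 and 7.73 CPM in the rest, with an interaction of -1.97 ± 0.52 (edgeR adjusted p = 0.0288). The interaction for *Egln3* was no longer called without DTA- replicate 2 (0.193) or without DTA+ replicate 1 (0.298), in edgeR adjusted p, whereas that of *Aldoa* was called without any one sample. For the other members called in the corpus cavernosum-like cells, *Slc16a3* and the 6 later enzymes included, a difference from the rest of the mesenchyme was not shown.

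**Figure D5:**
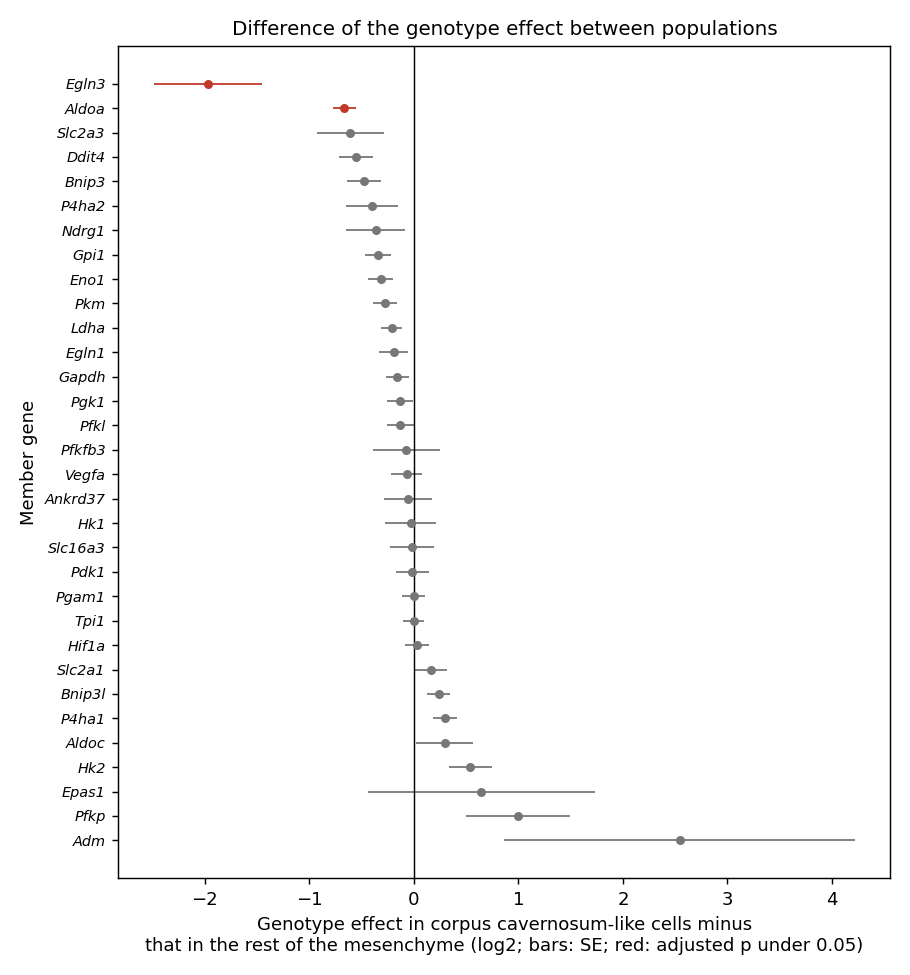
Interaction of genotype and population (x axis, log2 fold change in corpus cavernosum-like cells minus that in the rest of the mesenchyme) for the 32 members, with SE bars and called members in red. *Aldoa* and *Egln3* are called, at -0.67 and -1.97.

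Other genes of the same pathways, from lists that hold no member, were counted in the pooled mesenchyme. Of 25 other glycolysis and glucose genes tested 0 were called by edgeR's quasi-likelihood test, with 3 at an unadjusted p under 0.05 and a median log2 fold change of -0.02. Of 39 further HIF pathway and hypoxia-induced genes, 1 was called higher and 2 lower. *Igfbp3*, which binds insulin-like growth factors, was at 472 and 533 CPM in DTA- and 870 and 1015 CPM in DTA+ samples (edgeR adjusted p = 0.0265). *Higd1a*, a mitochondrial protein induced by hypoxia, was at 164 and 167 against 88.7 and 98.3 CPM (edgeR adjusted p = 0.0301), and the cytokine *Mif* at 625 and 607 against 361 and 387 CPM (edgeR adjusted p = 0.0299). Of all genes tested in the pooled mesenchyme, 0.618% were called higher and 0.553% lower. Of 22 genes of pyruvate dehydrogenase and the citric acid cycle 19 were below 0, with a median of -0.16, 3 at an unadjusted p under 0.05 and 0 called by edgeR. In the corpus cavernosum-like cells, 2 of 19 other glycolysis genes were called lower (*Slc2a4* and *Eno3*), 5 of 34 HIF pathway genes higher and 6 lower, and 3 of 22 citric acid cycle genes lower (*Mdh1*, *Mdh2* and *Suclg1*).

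Several other measures moved with genotype or with single libraries beside these genes. In the corpus cavernosum-like cells the summed hemoglobin mRNA (5 of 7 genes detected, *Hbb-y* and *Hbb-bh1* at 0) was 2451 and 1393 CPM in DTA- and 1217 and 252 CPM in DTA+ samples. Pericyte markers (7 of 7 detected) summed to 115 and 114 against 187 and 186 CPM. Cycling markers (8 of 8) summed to 646 and 1016 against 714 and 608 CPM, and immediate early and heat shock genes (10 of 10) to 6099 and 14713 against 11382 and 11678 CPM, with the first DTA- sample apart. Glucocorticoid-induced genes (8 of 8) summed to 156 and 177 against 123 and 112 CPM there and to 331 and 499 against 168 and 162 CPM in the pooled mesenchyme, where *Fkbp5*, *Zbtb16* and *Mt2* of 8 tested were called lower. Without the first DTA- sample the members' median log2 fold change in the corpus cavernosum-like cells was -0.52. Of the erythroid markers, *Slc4a1* was at 0 there, while the adult hemoglobin genes were detected. The part of these measures in the lower levels of the members was not tested.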

How the data were processed

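Penises of E16.5 embryos were dissociated with enzymes and profiled with the 10x Genomics 3' kit. The authors aligned reads to mm10 with *tdTomato* added (Cell Ranger 4.0.0 per the submitters' processing notes) and deposited raw UMI counts, with no normalization, for every gene in every called cell. The study's cell limits were applied (1000 to 7500 UMIs, mitochondrial and *Hba* shares up to 25%, *Hbb* share up to 50%), and the remaining cells were clustered with Seurat 5.3.0 (R 4.3.3) on 2000 variable genes, 30 principal components and resolution 0.8. Of 27 clusters 19 were named from at least 3 enriched markers; the naming thresholds were chosen with the data in view. The members and all lists were chosen with earlier results of these data known. 4 member features were among the variable genes.

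In each population with at least 20 cells in every sample, the counts of a sample were added up and genotypes compared by the quasi-likelihood test of edgeR 4.0.16, after filterByExpr and TMM scaling, with genotype as the only term and Benjamini-Hochberg adjustment over all genes tested there. The interaction used corpus cavernosum-like cells and the other mesenchyme with sample as a term. DESeq2 1.42.0 was an alternative. Doublets were kept; Scrublet (scanpy 1.11.5) called 0 to 1 cells per sample with its automatic threshold, which did not work, so the highest scores were left out as an alternative. All members were to be named, with sample values for up to 3 called members per direction and named population; further values were added after they were seen. The tests were tried on simulated counts. Promoter windows are RefSeq's (GRCm38.p6) and gene spans those of GENCODE. UMI totals are given with the data. Python 3.11.15, numpy 2.4.6, pandas 2.3.3 and matplotlib 3.10.9 were used.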

Additional observations from a re-analysis of the deposited data

Results flagged for a closer look

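The genotype difference of *Aldoa* was larger in the corpus cavernosum-like cells than in the rest of the mesenchyme, by -0.67 on the log2 scale, in the test of the difference itself. With any one sample left out it stayed called and lay between -0.81 and -0.57. The same test set *Egln3* apart by -1.97, on 3 to 22 UMIs per sample in the corpus cavernosum-like cells.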

How the results depend on the processing

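With 2 samples per genotype, leaving out 1 sample leaves a lone sample whose spread is taken from the other group, and several populations had few cells, so depth limits what can be called outside the mesenchyme. The replicate numbers share no stated litter, and deviations of the samples numbered 1 correlated at -0.234 over 15977 genes. With the replicate block, 1 member was called in all cells, 1 in the pooled mesenchyme, 11 in the corpus cavernosum-like cells and 19 over the named populations; with the block crossed, added after seeing the data, 8, 10, 14 and 31 were, and 13 in the *Coch*/*Meox2* cluster. The counts as reported were 0 in all cells, 0 in the pooled mesenchyme, 19 over the named populations, 6 in the distal glans-like cells, 12 in the corpus cavernosum-like cells, 8 and 7 in the *Coch*/*Meox2* and *Thbd*/*Ptgis* clusters and 2 for the interaction.

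In all cells the likelihood ratio test and DESeq2 each called 3 and no filter on low counts 2. In the pooled mesenchyme the likelihood ratio test called 5, DESeq2 4, no filter 8, resolution 0.4 3, lifting the upper UMI limit 2, and thinning to 1000 UMIs and leaving out high doublet scores 1 each. Over the named populations DESeq2 called 11 and thinning left 10. In the distal glans-like cells thinning left 3. In the corpus cavernosum-like cells DESeq2 called 7, no filter 5 and thinning 6. In the *Coch*/*Meox2* cluster DESeq2 and thinning gave 5 each; in the *Thbd*/*Ptgis* cluster DESeq2 gave 1, resolution 0.4 4, the lifted limit 3 and thinning 2. The interaction gave 4 without the filter. Leaving out 1 sample gave 0 to 1 in all cells and in the pooled mesenchyme, 6 to 28 over the named populations, 2 to 8 in the distal glans-like, 1 to 14 in the corpus cavernosum-like cells, 3 to 10 and 0 to 8 in the *Coch*/*Meox2* and *Thbd*/*Ptgis* clusters and 1 to 6 for the interaction.

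The 34 called fold changes kept their direction in all 544 alternatives, and 421 kept the call. In the pooled mesenchyme, 7 of 224 reversed, for 2 genes that were not called there: *Ankrd37* ranged from -0.38 to 0.13 with 1 sample left out, above 0 without DTA+ replicate 1, and *Egln3* at 0.031 with the replicate block and 0.027 with it crossed, 0.18 with the upper limit lifted and 0.40 after thinning. With 1 sample left out *Egln3* ranged from -0.42 to 0.50, above 0 without DTA- replicate 2 and, at 0.0023, without DTA+ replicate 1. The cause was not tested.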
